A study of Canis lupus familiaris with 55 samples.

Results

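Testis gene expression was followed over 3 gestational days, d37, d39 and d44, in XY control embryos of the dog, with day counted from the luteinizing hormone surge of the dam. The members were the 9 XY libraries of the control pedigree among 55 gonad libraries, and they were taken by sex chromosomes, pedigree and day in the sample labels. Each library was made from polyA RNA of the frozen gonads of 1 embryo: A1096, A1099 and A1100 at d37, A1091, A1094 and A1095 at d39, and A1106, A1108 and A1109 at d44. All 9 embryos had wild type beagle parents. The 3 embryos of a day came from 1 litter. Gestational day and litter therefore cannot be told apart among the testis libraries, and every p-value measures spread among embryos of 1 litter per day. Values were set beside 9 ovaries of XX control embryos, which came from the same 3 litters. They were also set beside 12 testes of XY littermates from the XX DSD model pedigree, in which XX dogs can form testicular tissue. Those littermates were 4 embryos of d35, 1 of d37, 4 of d39, 1 of d41 and 2 of d42 from 8 litters, and all carried the associated insertion in 1 or both copies. The littermate labelled d41 has a younger age in the paper's list of embryos. The paper's methods, however, place it by developmental criteria after d39 and before d42.

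In the fetal testis, Sertoli cells switch on SOX9, enclose germ cells in cords and secrete anti-Müllerian hormone. They also signal through desert hedgehog to cells between the cords, where fetal Leydig cells arise. Leydig cells import and cleave cholesterol to make androgens and release INSL3, a hormone for testis descent. Fibroblasts, vessels, macrophages and nerves share this interstitium, and fibroblasts lay down the collagens, fibrillins and proteoglycans of the matrix.

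Expression was given in FPKM, fragments scaled to transcript length and to the mapped fragments of a library, for 58781 loci of an assembly guided by the annotation, of which 19702 held 1 gene name of their own. The test covered 21931 loci with a mean of at least 1 FPKM on at least 1 day, 13133 of them with an annotated gene. Relative depth, estimated from the smallest steps between low FPKM values, was 0.184 to 1 of the deepest library, with A1100 the shallowest. The libraries A1099 of d37 and A1095 of d39 stood apart on the first and the second principal component. Counts of called loci between pairs of days and the fibrillar matrix list are also given without both. Comparisons with ovary were not fitted without both. The tissue label held against its markers: the testis gene SOX9 was at 53.6 to 92.8 FPKM in all 9 libraries, whereas the ovary gene FOXL2 was at 0.168 to 1.09 FPKM. Of 18 germ cell genes with a locus of their own, 8 were tested and 10 were below 1 FPKM. Among the 10 was DDX4, an RNA helicase of germ cells, at 0.0385 to 0.519 FPKM.

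The first question was which genes differed at the end of the course from its start. At d44, 121 of 21931 loci were higher than at d37 (0.552%) and 76 were lower (0.347%) by limma on log2(FPKM + 1) with an adjusted p under 0.05. The higher loci included 6 of 19 fibrillar matrix genes tested, and CCK, PCP4 and NTRK3, genes best known from neurons, were among the largest decreases. Of the called loci, 107 higher and 53 lower ones had a gene name of their own, and 12 and 20 held no annotated gene. A ratio of mean FPKM of at least 2 with a mean of at least 4 FPKM was met by 99 higher and 61 lower loci. At an unadjusted p under 0.05 there were 3182 loci, and the median change over all loci was -0.03. Call numbers moved with single libraries, between 80 without A1108 and 312 without A1095, and 54 (without A1108) to 192 (without A1095) of the 197 called loci were still called with 1 testis library left out. All 197 kept their direction in these fits, as loci chosen for a large difference tend to. In a fit that also held the 9 ovaries, 772 loci were higher and 1013 lower. These are bulk gonads, in which fewer cells of a type and less RNA per cell cannot be told apart.

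**Figure D1:**
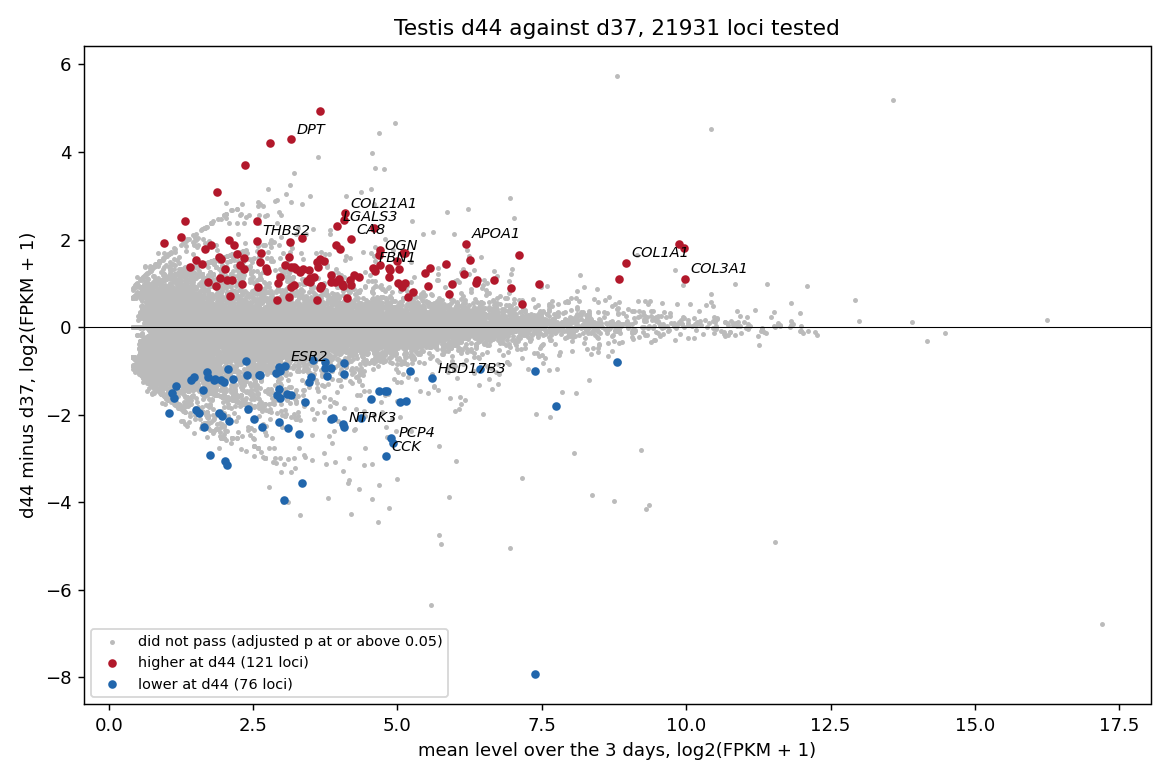
Each point is 1 of the 21931 loci tested, with its mean level over the 3 days on the x axis, log2(FPKM + 1), and the difference d44 minus d37 on the y axis, log2(FPKM + 1). Red points are the 121 loci higher and blue points the 76 loci lower at d44 by limma, and grey points did not pass, some of them with larger differences than the called loci. DPT lies at 4.29 and CCK at -2.94.

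Fibrillar matrix genes gave more called members than any other of the 28 gene lists. Of 19 fibrillar matrix genes tested, 6 were higher at d44 than at d37, none was lower, and all 19 had a positive difference, with a median of 0.74 on the log2(FPKM + 1) scale against -0.03 over all loci. The 6 were OGN, FBN1, COL14A1, COL1A1, COL1A2 and COL3A1, of which COL1A1 and COL3A1 were added to the named genes after their values had been seen. FPKM summed over the list was 1730 to 2520 at d37, 2840 to 3700 at d39 and 4170 to 4580 at d44, with no overlap between days. Most of that sum was COL1A1, COL1A2 and COL3A1, so the sum largely repeats their values. The list was chosen with earlier results of these data known. It did not hold COL2A1, a fibrillar collagen that was lower at d44 and is described below. Without A1108 or without A1109, none of the 19 passed, although the median stayed at 0.76 in both fits, and without A1099 and A1095 together 6 passed with a median of 0.54.

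FBN1, the glycoprotein of microfibrils, had 14.5, 9.62 and 14.4 FPKM at d37, 22.0, 18.5 and 24.7 FPKM at d39 and 31.7, 35.1 and 35.2 FPKM at d44. The libraries of the 3 days fell in separate ranges, and d44 exceeded d37 by 1.36 ± 0.17 (log2, SE, adjusted p = 0.012). OGN, a small leucine-rich proteoglycan, had 14.03, 10.1 and 12.2 FPKM at d37, 18.8, 17.5 and 29.8 FPKM at d39 and 32.7, 41.1 and 46.5 FPKM at d44. All d44 libraries again lay above all others, by 1.64 ± 0.22 over d37 (adjusted p = 0.016). COL1A2, a chain of type I collagen, had 327, 224 and 336 FPKM at d37, 511, 449 and 394 FPKM at d39 and 648, 650.3 and 589 FPKM at d44. Its difference was 1.11 ± 0.17 (adjusted p = 0.029), and the days did not overlap. COL1A1, the other chain, stood 2.75-fold higher at d44 than at d37 (log2 1.48 ± 0.23, adjusted p = 0.029), and COL3A1, the type III collagen, 2.11-fold higher (1.11 ± 0.18, adjusted p = 0.033). COL14A1, a collagen that binds to fibrils, was 2.52-fold higher (1.28 ± 0.18, adjusted p = 0.020). Of these, FBN1 and COL14A1 lost the call without A1108 or A1109 (adjusted p up to 0.060 and 0.087). OGN lost it without A1099, A1108 or A1109 (up to 0.074), and COL1A2 without A1094, A1096 or any d44 library (up to 0.11). The small proteoglycan DCN and the collagen-binding SPARC, with ratios of 1.39 and 1.30 for d44 over d37, did not pass.

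Matrix genes were also among the 12 named genes with the largest ratio of d44 over d37. DPT, dermatopontin, a small protein that binds collagen fibrils (chr7:29830270-29855478, plus strand, CanFam3), had 0.116, 0.159 and 0.193 FPKM at d37, 1.90, 1.54 and 1.49 FPKM at d39 and 28.9, 19.6 and 17.7 FPKM at d44. No library of one day reached the range of another, and the mean at d44 was 141-fold that at d37 (log2(FPKM + 1) difference 4.29 ± 0.19, adjusted p = 5.3e-05). COL21A1, a fibril-associated collagen (chr12:23359349-23563378, minus strand), had 4.35, 4.96 and 4.05 FPKM at d37, 9.44, 9.95 and 14.8 FPKM at d39 and 31.7, 30.3 and 34.7 FPKM at d44. The ranges were again separate, with a 7.24-fold difference between d44 and d37 (2.61 ± 0.17, adjusted p = 0.00047). Both genes also passed between d44 and d39, and both kept the d44 against d37 call without each library in turn.

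THBS2, thrombospondin 2, a matrix protein that binds cells and collagen-modifying enzymes, averaged 9.17 ± 1.87 FPKM at d44 and 1.57 ± 0.373 FPKM at d37 (SD, n = 3 each, log2 1.98 ± 0.20, adjusted p = 0.0047). LGALS3, galectin 3, a lectin that binds galactosides, averaged 28.7 ± 10.01 FPKM at d44 and 5.01 ± 1.91 FPKM at d37 (2.31 ± 0.31, adjusted p = 0.014). ITGBL1, a secreted protein with integrin-like repeats, averaged 4.55 ± 0.520 FPKM at d44 and 0.616 ± 0.149 FPKM at d37 (1.78 ± 0.17, adjusted p = 0.0045). The libraries of these 3 genes did not overlap between d44 and d37. ADRA2A, an alpha-2 adrenergic receptor, was 6.54-fold higher at d44 than at d37, CNTN6, a neural adhesion molecule, 4.99-fold and MMRN1, a protein of platelets and endothelium, 4.98-fold. The remaining 4 of the 12 genes with the largest ratio had an identifier and no symbol: ENSCAFG00000025332, ENSCAFG00000008341, ENSCAFG00000012963 and ENSCAFG00000031437. Of the 12, the call of MMRN1 was lost without 5 of the 9 libraries (A1099, A1100 and each d44 library, adjusted p up to 0.090), that of ENSCAFG00000008341 without 6 (A1091, A1094 and A1095 left it in place, up to 0.10) and that of ENSCAFG00000025332 without 3 (A1096, A1106 and A1108, up to 0.057). The other 9 kept theirs.

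Other higher genes, some of matrix and its turnover and some of other functions, were picked out after their values had been seen. VCAN, the proteoglycan versican, had a mean of 46.8 FPKM at d44 and 18.2 FPKM at d37 (adjusted p = 0.012). FBLN5, an elastic fibre protein, had 48.7 and 16.5 FPKM on those days (adjusted p = 0.013). MMP2, a gelatinase, had 140 FPKM at d44 and 66.7 FPKM at d37 (adjusted p = 0.048), and TIMP2, an inhibitor of such enzymes, 58.5 and 30.5 FPKM (adjusted p = 0.043). HSD11B1, which regenerates active glucocorticoid in many tissues, had 68.6 FPKM at d44 and 26.3 FPKM at d37 (adjusted p = 0.0046). CA8, a carbonic anhydrase relative without that activity, had 29.5 and 6.63 FPKM (adjusted p = 0.00093).

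**Figure D2:**
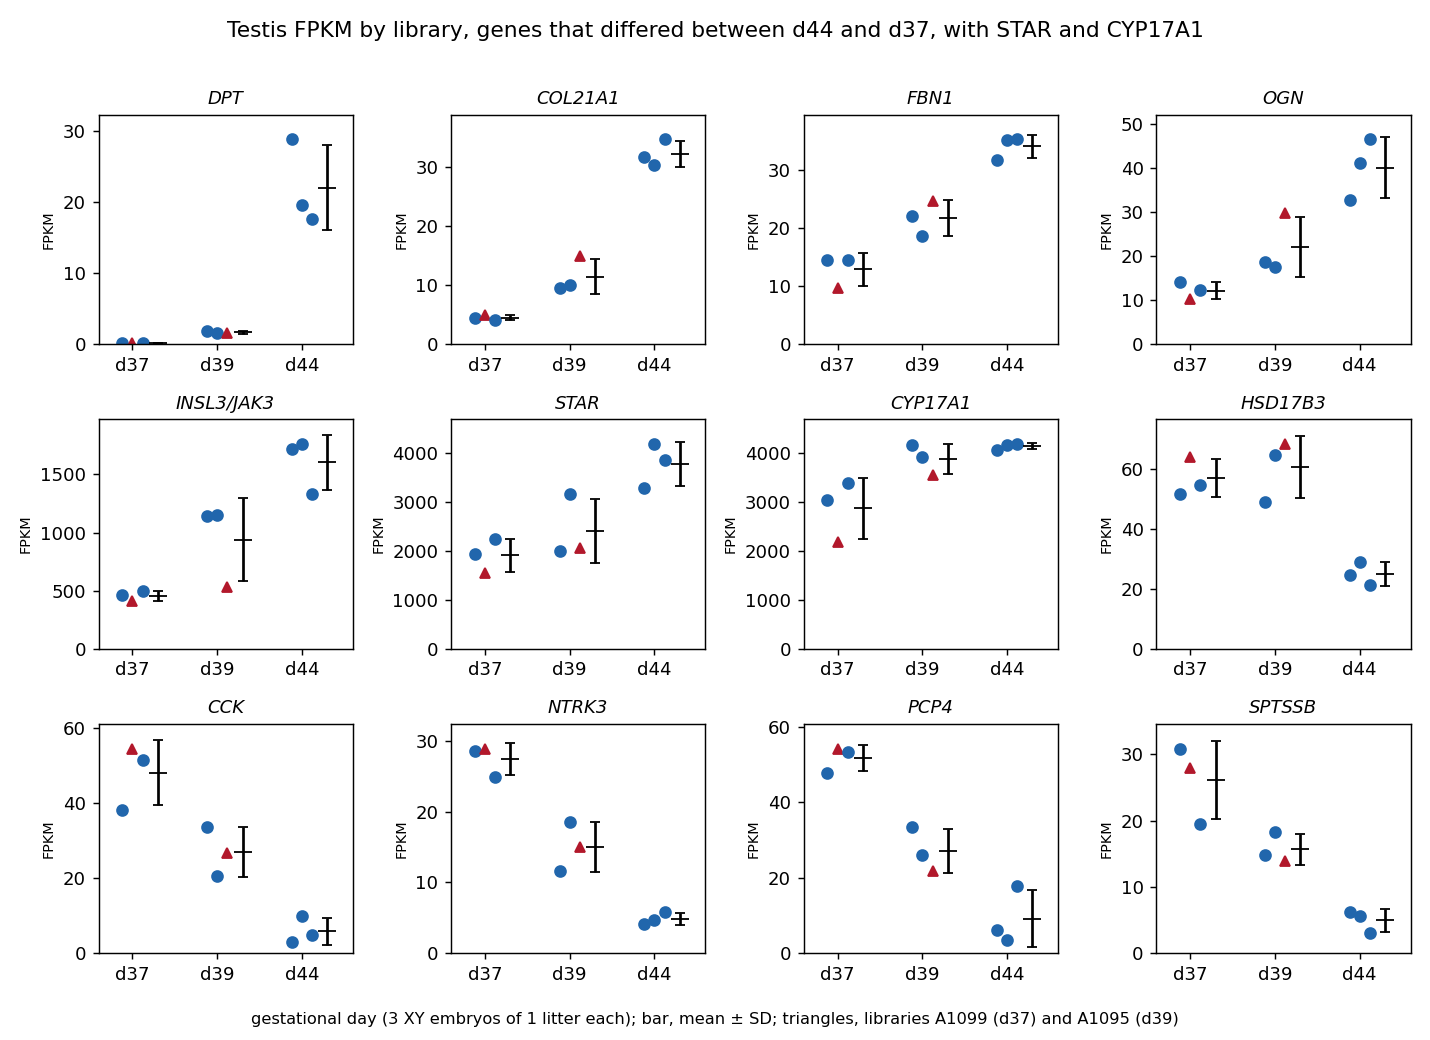
FPKM of 12 genes in each of the 9 testis libraries by gestational day, with 1 point per embryo, the mean and its SD as a bar beside the points, and triangles for A1099 (d37) and A1095 (d39), which stood apart. The matrix genes of the top row stood highest at d44, where DPT reached 28.9 FPKM, the bottom row stood lowest there, and STAR and CYP17A1 did not pass between d44 and d37.

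Of 16 Leydig cell and steroidogenesis genes tested with a locus of their own, none was higher at d44 than at d37 and 1, HSD17B3, was lower, with a list median of 0.17 against -0.03 over all loci. Summed FPKM of the list was 6560 to 9530 at d37, 8450 to 10700 at d39 and 11100 to 12000 at d44, and the d44 libraries lay above all others. Most of that sum was STAR and CYP17A1, so the sum largely repeats their values. STAR, which carries cholesterol into mitochondria, had 1941, 1542 and 2234 FPKM at d37, 1991, 3156 and 2055 FPKM at d39 and 3295, 4186 and 3851 FPKM at d44. Its d44 libraries lay above all others, and its difference of 1.00 ± 0.21 did not pass (adjusted p = 0.082). It passed when only loci with an annotated gene were tested, a choice made after seeing the data. CYP17A1, the enzyme that turns progestogens into androgens, had 3045, 2169 and 3383 FPKM at d37, 4163, 3913 and 3546 FPKM at d39 and 4059.7, 4164 and 4180.4 FPKM at d44. The d37 libraries were the 3 lowest, with a difference of 0.55 ± 0.17 for d44 (adjusted p = 0.18). CYP11A1, the enzyme that cleaves the side chain of cholesterol, averaged 493 ± 53.1 FPKM at d44 and 481 ± 108 FPKM at d37 (SD, n = 3 each, adjusted p = 0.96). LHCGR, the receptor of luteinizing hormone, averaged 17.7 ± 5.15 and 19.5 ± 1.76 FPKM (adjusted p = 0.72).

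HSD17B3, the testis enzyme that makes testosterone from androstenedione (chr1:70550869-70600859, plus strand), had 51.9, 64.1 and 54.8 FPKM at d37, 49.0, 64.9 and 68.5 FPKM at d39 and 24.7, 29.0 and 21.2 FPKM at d44. The d44 libraries lay below all others, while d37 and d39 overlapped. The difference between d44 and d37 was -1.16 ± 0.17 (adjusted p = 0.022), and that between d44 and d39 was -1.25 ± 0.17 (adjusted p = 0.054). Its call was lost without A1096, A1099, A1106 or A1109, with an adjusted p up to 0.085. The locus that holds both INSL3 and the neighbouring kinase gene JAK3 (chr20:45051135-45074695) had 460.1, 410.4 and 493 FPKM at d37, 1141, 1147 and 528 FPKM at d39 and 1722, 1762 and 1334 FPKM at d44. Its days did not overlap, although A1095 was close to d37, and d44 exceeded d37 by 1.81 ± 0.29 (adjusted p = 0.029). The files do not divide this value between the genes, and the call was lost without any 1 of the d37 or d44 libraries (adjusted p up to 0.12). No member of the cholesterol synthesis list, 22 genes tested, passed in either direction, and its median was 0.09. In the hedgehog list 0 of 12 genes passed by limma, with PTCH1, the receptor and a standard target, at 21.0 ± 3.12 FPKM at d44 and 18.3 ± 1.31 FPKM at d37 (adjusted p = 0.56).

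Sertoli cell genes showed no called change between d44 and d37 in the fit of the testis libraries. Of 21 Sertoli genes tested, 0 were higher and 0 lower at d44 than at d37 with limma, and the median was 0.06. In the fit that also held the ovaries, 1 of 21 was higher and 2 were lower in testis. AMH and DHH, which had no locus of their own, are not in these counts or in the sum. Summed FPKM of the list was 5170 to 6560 at d37, 5850 to 7970 at d39 and 6590 to 8380 at d44, and the libraries of d39 overlapped those of both other days. SOX9, the transcription factor that directs Sertoli cell fate, had 69.8, 69.0 and 69.0 FPKM at d37, 66.2, 73.7 and 92.8 FPKM at d39 and 53.6, 58.9 and 61.6 FPKM at d44. The d44 libraries were the 3 lowest, with a difference of -0.25 ± 0.14 (adjusted p = 0.44). AMH, anti-Müllerian hormone, was read from the table of annotated genes and had 3195, 2513 and 2419 FPKM at d37, 5684, 6269 and 2602 FPKM at d39 and 6111, 4499 and 4430.0 FPKM at d44. All d44 libraries lay above all d37 libraries, and the difference of 0.88 ± 0.31 did not pass (adjusted p = 0.19 over the annotated genes). A1095 had the lowest value of d39.

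INHBB, the activin and inhibin B subunit, averaged 175 ± 17.0 FPKM at d44 and 127 ± 8.77 FPKM at d37, without overlap (adjusted p = 0.15). DMRT1, a transcription factor that maintains male fate in the mouse testis, averaged 15.5 ± 1.39 FPKM at d44 and 20.6 ± 0.292 FPKM at d37 (adjusted p = 0.20). FSHR, the receptor of follicle stimulating hormone, averaged 76.7 ± 10.9 and 60.6 ± 16.9 FPKM, with overlap (adjusted p = 0.55). NR5A1, a regulator shared by Sertoli and Leydig cells, averaged 94.9 ± 8.02 FPKM at d44 and 96.8 ± 3.02 FPKM at d37 in the annotated table (adjusted p = 0.95). FGF9, a growth factor of the Sertoli programme, averaged 4.43 ± 0.701 FPKM at d44 and 5.25 ± 0.903 FPKM at d37 (adjusted p = 0.60). The locus shared by DHH, the hedgehog ligand, and LMBR1L averaged 57.4 ± 9.68 and 63.5 ± 5.50 FPKM (adjusted p = 0.73). A p above the threshold with 3 embryos a day does not show that these levels were the same.

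**Figure D3:**
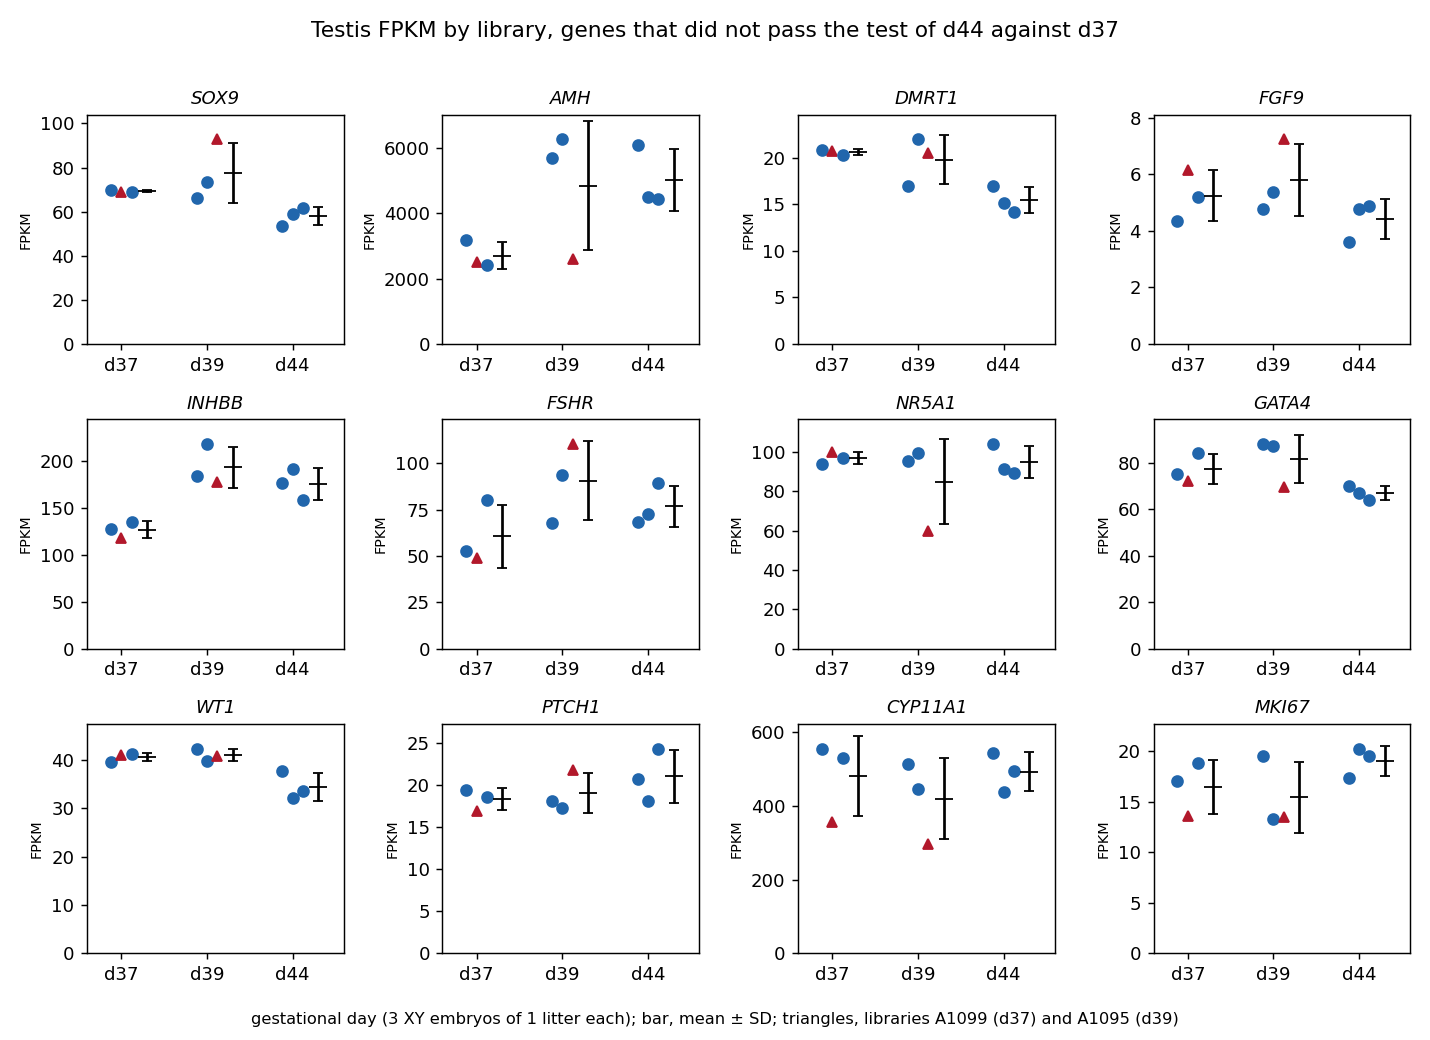
FPKM of 12 genes of Sertoli cells, Leydig cells, hedgehog signalling and proliferation in each of the 9 testis libraries by gestational day, with 1 point per embryo, mean and SD as a bar, and triangles for A1099 and A1095. None of the 12 passed between d44 and d37, and for AMH the d44 libraries, at 4430.0 to 6111 FPKM, lay above the d37 libraries, at 2419 to 3195 FPKM.

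CCK, the precursor of the peptide hormone cholecystokinin (chr23:11414248-11420149, minus strand), had 38.3, 54.6 and 51.6 FPKM at d37, 33.7, 20.5 and 26.6 FPKM at d39 and 3.04, 9.87 and 4.74 FPKM at d44. The days did not overlap, and CCK fell to 5.88 ± 3.55 FPKM at d44, against 48.1 ± 8.69 FPKM at d37 (log2 -2.94 ± 0.34, adjusted p = 0.0092). NTRK3, the receptor of neurotrophin 3 (chr3:51131389-51491195, minus strand), had 28.6, 28.9 and 24.9 FPKM at d37, 11.5, 18.5 and 15.0 FPKM at d39 and 4.15, 4.70 and 5.78 FPKM at d44. It too had separate ranges, with differences of -2.28 ± 0.18 between d44 and d37 (adjusted p = 0.0011) and -1.43 ± 0.18 between d44 and d39 (adjusted p = 0.040). SPTSSB, a small subunit of the enzyme that starts sphingolipid synthesis, had 30.8, 28.0 and 19.5 FPKM at d37, 14.8, 18.3 and 13.9 FPKM at d39 and 6.20, 5.68 and 3.00 FPKM at d44. Its libraries fell in order of day without overlap (d44 minus d37 -2.21 ± 0.25, adjusted p = 0.0092).

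PCP4, a calmodulin-binding peptide of neurons, averaged 9.13 ± 7.55 FPKM at d44 and 51.8 ± 3.44 FPKM at d37 (-2.64 ± 0.43, adjusted p = 0.033). OLFM3, an olfactomedin, averaged 0.594 ± 0.318 FPKM at d44 and 5.21 ± 0.940 FPKM at d37 (-1.97 ± 0.23, adjusted p = 0.0092), and STAC2, an adaptor of calcium channels, 2.04 ± 0.445 and 13.3 ± 5.48 FPKM (-2.18 ± 0.28, adjusted p = 0.012). None of these genes overlapped between d44 and d37. The other 6 of the 12 largest decreases were SNORD94, a small nucleolar RNA listed at 0 in A1106 and A1108, MEG3_2, part of an imprinted noncoding RNA, CRSP1, and the identifiers ENSCAFG00000028470, ENSCAFG00000029840 and ENSCAFG00000012157. CCK, NTRK3, SPTSSB and OLFM3 kept their call without each library in turn. STAC2 lost it without A1108 or A1109 (adjusted p up to 0.060) and MEG3_2 without A1106 or A1109 (up to 0.063). PCP4 lost it without 7 of the 9 libraries (A1095 and A1109 left it in place, up to 0.13), and CRSP1 without A1096, A1100 or any d44 library (up to 0.10). The remaining 4 lost it without 4 to 8 libraries.

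SLC52A3, a riboflavin transporter, had 36.9, 33.4 and 37.4 FPKM at d37, 29.2, 27.6 and 21.2 FPKM at d39 and 12.5, 13.2 and 11.5 FPKM at d44, with no overlap (d44 minus d37 -1.46 ± 0.14, adjusted p = 0.0041). ESR2, oestrogen receptor beta, which is also a gene of ovarian granulosa cells, averaged 4.63 ± 0.665 FPKM at d44 and 9.48 ± 0.984 FPKM at d37 (-0.90 ± 0.13, adjusted p = 0.023). It was the only 1 of 12 pre-granulosa genes tested to pass, and it lost the call without A1099, A1100 or any d44 library (up to 0.076). COL2A1, a fibrillar collagen best known from cartilage, was chosen after its values had been seen because it went against the other collagens. It averaged 14.1 FPKM at d44 and 49.1 FPKM at d37 (adjusted p = 0.011).

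The intermediate day lay mostly between the ends. Among the 121 higher loci, 112 (92.6%) had a d39 mean between those of d37 and d44, as had 68 of the 76 lower loci (89.5%), against 39.3% of all loci tested. Loci chosen for a difference between the ends tend to this order. At d39 the median higher locus had covered 51.1% and the median lower locus 53.3% of its change. A test of any difference among the 3 days called 83 loci (0.378%), of which 45 rose and 20 fell in order of day. Another 6 had their highest mean at d39, among them HSD17B3 and the transcriptional coregulator CITED2, at 47.3, 79.7 and 60.6 FPKM on d37, d39 and d44. The remaining 12 comprised 7 with the lowest mean at d39, among them COL9A2, a collagen of cartilage, at 3.29, 0.881 and 4.50 FPKM, and 5 unannotated loci listed at 0 on 2 of the days.

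Few loci passed within either step. Between d39 and d37, 2 loci were higher (0.00912%) and 4 lower (0.0182%), with 1814 at an unadjusted p under 0.05. BRINP3, a gene of nervous system development, had 4.60, 4.82 and 4.80 FPKM at d37, 9.45, 10.03 and 10.4 FPKM at d39 and 12.7, 13.5 and 13.8 FPKM at d44. Its 3 days were tightly grouped and apart (d39 minus d37 0.93 ± 0.10, adjusted p = 0.047). CCL26, a chemokine of eosinophils, had 47.9, 43.8 and 52.4 FPKM at d37, 19.4, 15.8 and 15.2 FPKM at d39 and 18.5, 14.6 and 17.2 FPKM at d44. It was lower at d39 than at d37 by limma (-1.47 ± 0.14, adjusted p = 0.024), and d44 overlapped d39. The other higher locus was ENSCAFG00000002230, and the other 3 lower ones had no annotated gene. This count rested on single libraries: without A1100 there were 102 loci, and without A1095 33.

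Between d44 and d39, 11 loci were higher (0.0502%) and 4 lower (0.0182%), with 1274 at an unadjusted p under 0.05. The higher ones with a name were DPT, COL21A1, ENSCAFG00000002230, ENSCAFG00000012963 and ENSCAFG00000006595, and the lower one was NTRK3. DPT differed by 3.10 ± 0.19 (adjusted p = 0.00034) and COL21A1 by 1.44 ± 0.17 (adjusted p = 0.033). Another 6 higher and 3 lower loci had no annotated gene. Without A1095 the count was 36, and without A1094 it was 9.

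The second question was whether testes and ovaries of the same litters changed alike. A difference between litters that both sexes shared drops out of this contrast, which subtracts the XX change from the XY change between d44 and d37. Over 25223 loci the testis change exceeded the ovary change at 213 (0.844%) and fell short of it at 209 (0.829%). The 121 loci higher in testis at d44 had a median change of 1.33 in testis and 0.21 in ovary, and 77 of them also had a positive ovary change. The 76 lower loci had medians of -1.49 in testis and -0.19 in ovary, and 53 also had a negative ovary change. Over all 21931 loci, 10993 had the same sign in both sexes. The testis values had chosen these loci, so their larger testis change is a description. The count moved to 931 without A1095.

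Several genes of Leydig cells changed differently in the sexes. CYP17A1 averaged 4135 ± 65.4 FPKM at d44 and 2865 ± 627 FPKM at d37 in testis, and 210.5 ± 40.2 and 834 ± 442 FPKM in ovary (SD, n = 3 each). The testis change exceeded the ovary change by 2.40 ± 0.45 (log2, adjusted p = 0.015). STAR averaged 3777 ± 449.8 FPKM at d44 and 1906 ± 347 FPKM at d37 in testis, and 139 ± 42.4 and 479.7 ± 258 FPKM in ovary, a difference of changes of 2.67 ± 0.49 (adjusted p = 0.013). The INSL3/JAK3 locus had a difference of 2.81 ± 0.47 (adjusted p = 0.0065), with ovary means of 36.4 ± 7.15 FPKM at d44 and 79.3 ± 38.5 FPKM at d37. The locus ENSCAFG00000002230 (chr12:20347712-20367052, minus strand) had the largest difference among the genes named by this rule, 4.34 ± 0.61 (adjusted p = 0.0022). It had 407, 422 and 415 FPKM at d37, 757, 917 and 809 FPKM at d39 and 1601, 1663 and 1425 FPKM at d44 in testis, against means of 11.6 ± 5.97 FPKM at d44 and 75.9 ± 56.8 FPKM at d37 in ovary. HSD17B3 went the other way, with -1.06 ± 0.18 (adjusted p = 0.0089), and was at or below 0.188 FPKM on average in ovary on both days. With so little in ovary, this value largely repeats the testis change.

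Of the Sertoli genes, AMH had a testis change that exceeded the ovary change by 1.74 ± 0.37 (adjusted p = 0.016 over the annotated genes), with ovary means of 7.71 ± 0.617 FPKM at d44 and 14.9 ± 3.03 FPKM at d37. INHBB differed by 1.38 ± 0.28 (adjusted p = 0.023). SOX9 differed by -0.92 ± 0.16 (adjusted p = 0.011), and its ovary means were 3.96 ± 0.286 FPKM at d44 and 2.13 ± 0.385 FPKM at d37. WT1, a transcription factor of supporting cells in both sexes, differed by -0.50 ± 0.11 (adjusted p = 0.037). FOXL2, the granulosa cell factor, differed by -1.58 ± 0.21 (adjusted p = 0.0017), with 0.211 ± 0.067 FPKM at d44 and 0.620 ± 0.410 FPKM at d37 in testis, and 48.5 ± 1.49 and 20.8 ± 2.79 FPKM in ovary. Its testis values were too low for the test among testis libraries.

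Among genes called in testis, SCARA5, a ferritin receptor, had a change that exceeded that of ovary by 2.84 ± 0.35 (adjusted p = 0.0011), FNDC1, a protein with fibronectin domains, by 2.45 ± 0.32 (adjusted p = 0.0015) and DPT by 2.30 ± 0.21 (adjusted p = 0.00014). The DPT change was not absent from ovaries, which averaged 5.35 ± 0.135 FPKM at d44 and 0.611 ± 0.188 FPKM at d37. CCK differed by -3.04 ± 0.46 (adjusted p = 0.0034), SPTSSB by -2.96 ± 0.42 (adjusted p = 0.0024), PCP4 by -2.52 ± 0.53 (adjusted p = 0.026) and STAC2 by -2.02 ± 0.33 (adjusted p = 0.0058). CCK averaged 11.2 ± 2.22 FPKM at d44 and 10.7 ± 3.86 FPKM at d37 in ovary. SLC52A3 differed by -2.0 ± 0.19 (adjusted p = 0.00014) and IGSF23, an immunoglobulin domain protein, by -2.17 ± 0.32 (adjusted p = 0.0031). In testis alone, the d44 against d37 call was lost without A1106 for SCARA5 (adjusted p = 0.052) and without A1108 for IGSF23 (0.055). LAMA2 (0.30 ± 0.23, adjusted p = 0.57), THBS2 (0.47 ± 0.28, adjusted p = 0.49), LGALS3 (0.24 ± 0.35, adjusted p = 0.75) and VWF (-0.10 ± 0.25, adjusted p = 0.88) did not pass, and each of the 4 had a positive ovary change. In the fibrillar matrix list, 3 of 19 testis changes exceeded those of ovary and 0 fell short, with a median difference of 0.62.

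**Figure D4:**
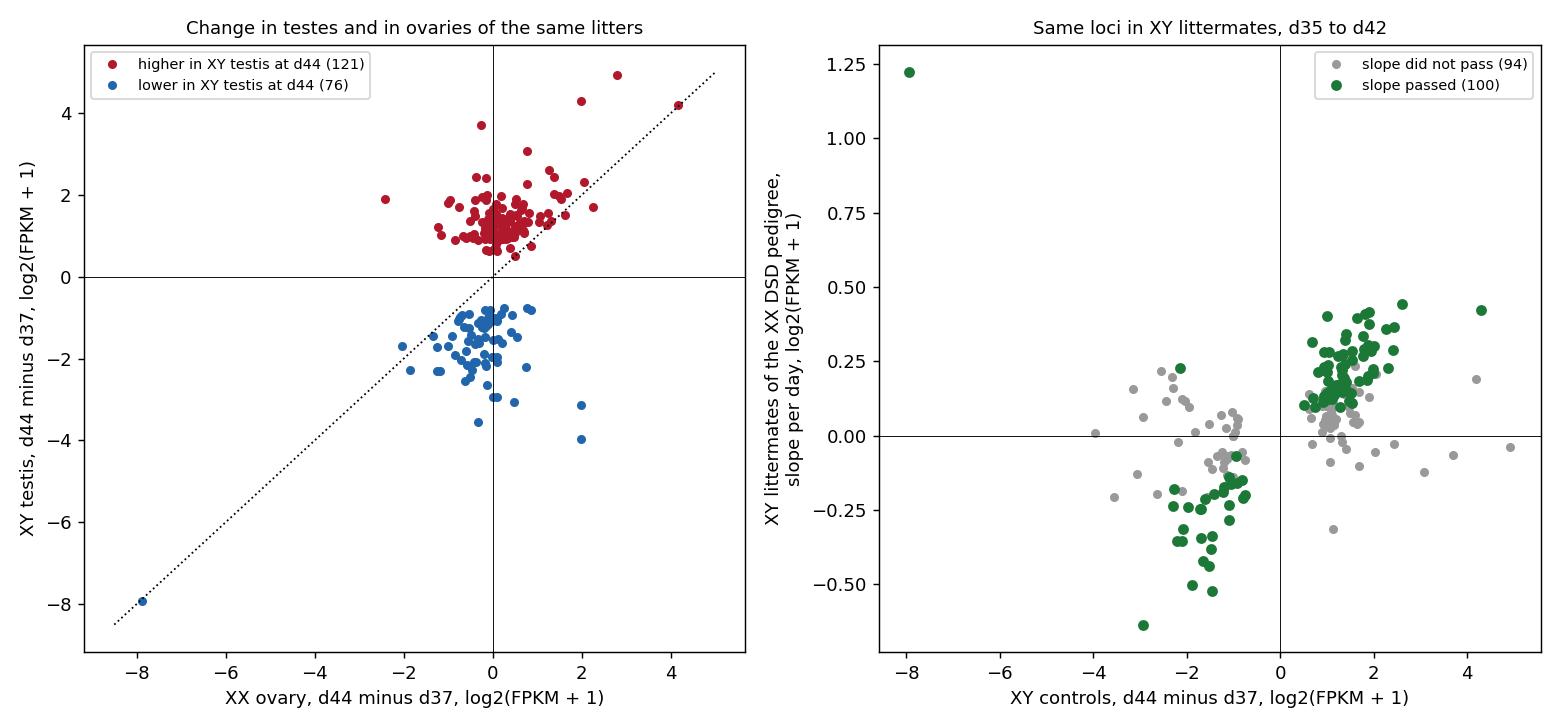
Left, the change d44 minus d37 in XY testis (y axis) against that in XX ovary of the same litters (x axis), both log2(FPKM + 1), for the 121 loci higher (red) and 76 lower (blue) in testis at d44, with a dotted line of equal change. Right, for the same loci, the slope per gestational day in XY littermates of the XX DSD pedigree (y axis) against the change in XY controls (x axis). Green points are the 100 loci whose slope passed and grey points the 94 whose slope did not. Most higher loci, 108 of 121, had a slope above 0, against 10476 of the 19392 loci tested in both.

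The third question was whether embryos of other litters moved the same way. The 12 XY littermates share no library with the controls and were fitted with a slope per gestational day from d35 to d42. Over 32276 loci, 1455 slopes were positive (4.51%) and 2695 negative (8.35%) at an adjusted p under 0.05. Of the loci tested in control testis, 19392 were also tested in the littermates. Among these, 10476 slopes were positive and 8916 negative, 1447 passed as positive and 2632 as negative, and the median was 0.011 log2 per day. All 121 loci higher in control testis were tested in them: 108 had a positive slope, 69 passed as positive and 0 as negative, with a median of 0.151. Of the 73 lower loci tested, 51 had a negative slope, 29 passed as negative and 2 as positive, with a median of -0.111. The 2 exceptions, XLOC_012696 and XLOC_035212, hold no annotated gene. The littermates carry the insertion and come from another pedigree, with litter nested in day. With litter as a random block 384 slopes passed as positive and 894 as negative, and after quantile normalization 1 and 17. All slopes and adjusted p-values given by locus, gene or list are from the fit without that block or normalization. Which of those calls would stay in the other 2 fits is not given.

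DPT had a slope of 0.422 ± 0.074 per day (log2, SE, adjusted p = 0.0032), with means of 0.163 ± 0.108 FPKM at d35 (n = 4), 3.42 ± 3.35 FPKM at d37 and d39 (n = 5) and 7.20 ± 0.940 FPKM at d41 and d42 (n = 3). COL21A1 rose by 0.442 ± 0.062 (adjusted p = 0.0013), OGN by 0.397 ± 0.036 (adjusted p = 0.00098) and FBN1 by 0.171 ± 0.027 (adjusted p = 0.0019). COL1A2 had a slope of 0.044 ± 0.019 that did not pass (adjusted p = 0.20), although 8 of 19 fibrillar matrix genes passed as positive and 0 as negative. CCK fell by 0.635 ± 0.079 per day (adjusted p = 0.0011), with 190.3 ± 60.8, 28.0 ± 19.9 and 8.47 ± 2.92 FPKM at the successive stages, and SPTSSB by 0.355 ± 0.080 (adjusted p = 0.011). INSL3/JAK3 rose by 0.410 ± 0.091 (adjusted p = 0.011) and ENSCAFG00000002230 by 0.377 ± 0.063 (adjusted p = 0.0026). STAR had 0.236 ± 0.072 (adjusted p = 0.051). HSD17B3 had a slope of 0.025 ± 0.042 that did not pass (adjusted p = 0.86), with 41.4 ± 12.3, 50.7 ± 8.58 and 45.5 ± 18.1 FPKM at the successive stages. In the controls it was lower only at d44, a day the littermates do not reach, so this slope cannot show whether they follow. The slopes of STAC2 (-0.021 ± 0.048, adjusted p = 0.86) and ESR2 (0.057 ± 0.027, adjusted p = 0.24) did not pass either. DMRT1 fell in littermates by 0.175 ± 0.030 (adjusted p = 0.0028), WT1 by 0.146 ± 0.026 (adjusted p = 0.0033) and the DHH/LMBR1L locus by 0.221 ± 0.031 (adjusted p = 0.0013); in the controls these did not pass between d44 and d37.

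Other cell types and programmes gave single called genes. LAMA2, a laminin chain, was 1 of 15 basement membrane genes, with 17.7 ± 1.86 FPKM at d44 and 5.52 ± 1.58 FPKM at d37 (1.55 ± 0.19, adjusted p = 0.0098). VWF, von Willebrand factor, was 1 of 16 endothelial genes, with 18.9 ± 2.78 and 6.03 ± 1.42 FPKM (1.51 ± 0.19, adjusted p = 0.011), and the endothelial sum was 280 to 325 FPKM at d44 and 203 to 305 FPKM at d37. CDKN2C, an inhibitor of cyclin-dependent kinases, was the only called gene of 29 in the cell cycle list, at 4.94 ± 0.777 and 1.82 ± 0.540 FPKM (1.09 ± 0.19, adjusted p = 0.040), while 27 of the 29 had a positive difference with a median of 0.18. In XY littermates the same list had 17 slopes that passed as negative and 3 as positive, with a median of -0.132 per day. MKI67, a proliferation marker, averaged 19.1 ± 1.505 FPKM at d44 and 16.5 ± 2.67 FPKM at d37 (adjusted p = 0.58). The call of VWF was lost without A1106 or A1108 (adjusted p up to 0.057), and that of CDKN2C without any library but A1095 (up to 0.16).

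In the nerve and Schwann list, ELAVL4, a neuronal RNA-binding protein, was lower, with 0.223 ± 0.0244 FPKM at d44 and 2.50 ± 0.110 FPKM at d37 (-1.52 ± 0.25, adjusted p = 0.034). It lost its call without any library but A1095 (up to 0.13). The sum of that list was 78.0 to 81.4 FPKM at d44, below the 90.2 to 102 FPKM of d37, and SOX10, a defining gene of Schwann cells, was at 6.83 ± 0.448 FPKM at d44 and 10.4 ± 0.889 FPKM at d37 (adjusted p = 0.33). The part of these cells in the decreases of CCK, NTRK3 and PCP4 was not tested. APOA1, an apolipoprotein of liver and gut, was higher at d44, with 119.6 ± 14.2 FPKM at d44 and 31.0 ± 2.43 FPKM at d37 (1.91 ± 0.27, adjusted p = 0.019), and lost the call without 5 libraries (A1096, A1099 and each d44 library, up to 0.083). The liver list had 3 genes tested, with a median of 1.55, and its summed FPKM was 115 to 145 at d44 and 36.7 to 42.5 at d37, without overlap. Most of that sum was APOA1 itself, at 104.7 to 133 FPKM at d44 and 28.4 to 33.2 FPKM at d37, so the sum repeats the APOA1 result. SERPINA1, a protease inhibitor secreted by liver, averaged 7.70 ± 1.54 FPKM at d44 and 2.46 ± 2.43 FPKM at d37 (adjusted p = 0.24), and albumin (ALB) 2.37 ± 0.155 and 4.14 ± 2.01 FPKM (adjusted p = 0.55). The other 8 of 11 liver genes with a locus of their own were below 1 FPKM. None of the 10 peritubular myoid, 14 macrophage, 8 germ cell, 8 erythroid, 7 mesonephros and kidney, 12 stress and 9 hypoxia genes tested passed in either direction.

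**Figure D5:**
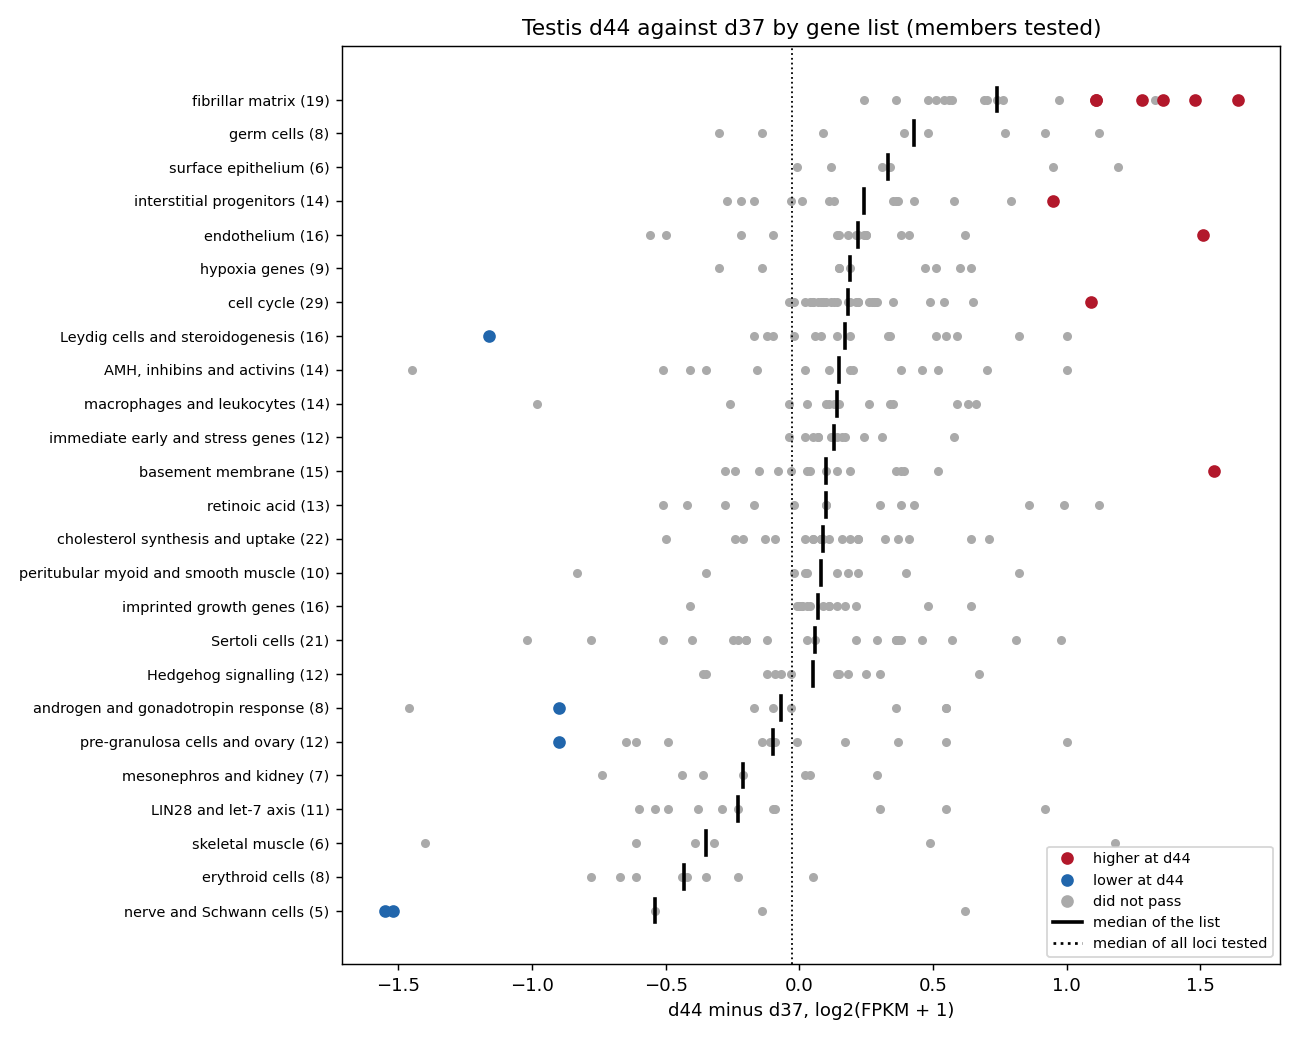
Difference d44 minus d37 in testis, log2(FPKM + 1), for every tested member of each gene list with at least 5 tested members, with 1 point per gene (red higher, blue lower, grey did not pass), a black bar for the list median and a dotted line at the median of all loci, -0.03. The fibrillar matrix list, 19 genes, had a median of 0.74 and all 19 points above 0, whereas the Sertoli list, 21 genes, had a median of 0.06. COL2A1, which was lower at d44, is not in the fibrillar matrix list.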

How the data were processed

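The authors prepared polyA libraries, trimmed single-end reads with cutadapt (1.5 in the submitters' processing notes), mapped them to canFam3 with TopHat2 2.0.13 and derived FPKM through Cuffnorm (Cufflinks 2.2.1). The deposited FPKM values are scaled across libraries and divided by transcript length; read counts were not used here. The tables read held 24581 annotated genes and 58781 assembled loci, with names and positions from the assembly. AMH and NR5A1 came from the annotated table. Depth is known only as a ratio between libraries, since the FPKM steps give no total.

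R 4.3.3 and limma 3.58.1 (linear models, moderated with a mean-variance trend) were run on log2(FPKM + 1). Tests were two-sided, and Benjamini-Hochberg adjustment covered all loci whose mean reached 1 FPKM in some group. The 9 testis libraries shared 1 fit by day. A fit of 18 control libraries gave the testis change minus the ovary change, and 12 littermates gave a slope per day. The script was tested on simulated data. Figures used Python 3.11.15, pandas 2.3.3 and matplotlib 3.10.9.

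The set of libraries to describe, the gene lists and the tests were chosen with earlier results of these data known, although each library was assigned to its day and sex from the labels alone. Named genes were up to 12 in each direction by ratio of means between d44 and d37 among loci with 1 gene name, an adjusted p under 0.05, a ratio of at least 2, a mean of at least 4 FPKM and no overlap. Up to 6 in each direction were named for each other step and for the difference from ovary, and up to 4 per list, plus a fixed set of testis and ovary genes. Of 497 listed genes, 403 had a locus of their own. Shared loci were not divided. HSD3B2, POU5F1, HBZ and ACTA2 were not analysed here. A few named genes are not reported here. Alternatives were another pseudocount, filters, scalings, limma without trend, the annotated table, other sets of libraries and each library left out; a fit of annotated loci only and one without A1099 and A1095 were added after seeing the data.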

Additional observations from a re-analysis of the deposited data

Results flagged for a closer look

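Changes between d44 and d37 that differed between testis and ovary of the same litters by limma were seen at 422 loci. In the values that follow, the XX change is subtracted from the XY change, log2(FPKM + 1).

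Genes whose testis change exceeded the ovary change were ENSCAFG00000002230 (4.34), SCARA5 (2.84), the INSL3/JAK3 locus (2.81), STAR (2.67), ENSCAFG00000025332 (2.58), ENSCAFG00000023349 (2.46), FNDC1 (2.45), CYP17A1 (2.40), DPT (2.30), AMH (1.74) and INHBB (1.38). In each of these except DPT the XX change was negative, from -0.16 at ENSCAFG00000025332 to -2.43 at ENSCAFG00000002230.

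Genes whose testis change fell below the ovary change were CCK (-3.04), SPTSSB (-2.96), PCP4 (-2.52), IGSF23 (-2.17), STAC2 (-2.02), SLC52A3 (-2.0), FOXL2 (-1.58), HSD17B3 (-1.06), SOX9 (-0.92) and WT1 (-0.50). HSD17B3 had almost no expression in ovary, so its value largely repeats the testis change. For SOX9 the 18-library fit gave a testis change of -0.25 and an ovary change of 0.67.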

How the results depend on the processing

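No paired analysis was possible because the labels number no replicates across days and the embryos of the days are different litters. Between d44 and d37, 197 loci were called; the count was 110 with no filter, 127 by limma without trend, 1785 in the fit with ovaries, 125 without A1099 and A1095, and 80 to 312 with 1 library left out. Between d39 and d37 it was 6, then 11 with a pseudocount of 0.1, 3 after quantile normalization, 1 without trend, 0 in the annotated table (1210 at an unadjusted p under 0.05), 143 with ovaries, 3 over annotated loci, 25 without A1099 and A1095, and 2 to 102 with 1 library left out. Between d44 and d39 it was 15, then 117 with ovaries, 42 without A1099 and A1095, and 9 to 36. For any difference among days it was 83, then 41 with no filter, 46 without trend, 129 in the annotated table, 974 with ovaries, 151 over annotated loci, and 29 to 164. The difference from ovary gave 422 loci and 288 to 931. The littermate slope gave 4150 loci, 18 after quantile normalization, 1278 with litter as a random block, and 2651 to 4618.

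Of 46 named genes called between d44 and d37, 17 kept the call in every alternative run for them and 0 reversed, and 19 kept it without each library. The annotated table matched 9 of the 46. With 3 embryos a day and 1 litter, the cause of these shifts was not tested. No depth in reads was known.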

Other observations

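One unannotated locus on chr15:51513069-51513229 was at 181 to 343 FPKM in every XY and XX control library of d37 and d39 and was listed at 0 in all 6 libraries of d44. Another, on chrX:78991290-78991479, was at 1.65 to 45.9 FPKM in the 6 libraries of d39 and listed at 0 in the 12 of d37 and d44. Both sexes showed both patterns, and day and litter cannot be told apart here.

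The series also held 1 library of pooled XY control gonads of d34, which entered no test. It held SOX9 at 56.0 FPKM, AMH at 849.6 FPKM, STAR at 129.6 FPKM, CYP17A1 at 93.1 FPKM, HSD17B3 at 4.94 FPKM and the INSL3/JAK3 locus at 5.37 FPKM. In the same pool CCK was at 94.8 FPKM and ELAVL4 at 44.6 FPKM, above every testis library of d37 to d44, while DPT was listed at 0.

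AMHR2, the receptor of AMH, averaged 22.3 ± 4.63 FPKM at d44 and 65.0 ± 27.5 FPKM at d37 in testis (limma adjusted p = 0.11). Its testis change fell below the ovary change by 1.82 on the log2 scale (adjusted p = 0.029), and its slope in XY littermates was -0.131 (adjusted p = 0.0058).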
